A study of Gallus gallus with 9 samples.

Results

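The kynurenine pathway, the main route by which the liver breaks down tryptophan, was described here in the liver of 9 laying hens. Members were the loci that carry, in the deposited annotation, the name of IDO2, TDO2, AFMID, KMO, KYNU, HAAO, ACMSD or QPRT. Of these 8 names, 6 were found, at 7 of the 22082 loci in the count table, since ACMSD names a pair of loci. All 7 loci passed the filter on low counts (more than 1 CPM, a count scaled to the library total, in at least 3 of the 9 libraries), which left 12324 loci for testing. The names TDO2 and QPRT match no locus. IDO2 was chosen by its difference between hens in these same libraries, and the other names were taken as the enzymes that stand beside it in the pathway. The levels of IDO2 in the comparisons are therefore a description, given without a test. IDO2 also passed the filter only with the hens that stood out in that choice.

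The hens were Isa Brown layers of 55 weeks, a commercial brown-egg hybrid, with 3 hens per group. Albumen-deprived hens had hatched from eggs from which 3 ml of albumen was withdrawn on day 1 of incubation and replaced with saline, so that less egg protein was left for the embryo. Sham-manipulated hens came from eggs that were opened and closed in the same way with nothing taken out or added, and non-manipulated hens from untouched eggs. The comparisons ask whether prenatal protein undernutrition is still visible in adult liver RNA, with the sham group carrying the handling of the egg. Each library came from 1 hen, so the spread within a group is the spread between hens. Library totals lay between 13720872 and 21747636 counts and the libraries of a group differed far beyond counting noise (chi-square per degree of freedom 31.0 to 107 over the 9 within-group pairs).

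Tryptophan not used for protein is opened at its indole ring by TDO2, the liver's own dioxygenase, or by the related IDO enzymes, which are better known from immune cells. AFMID then removes the formyl group to give kynurenine, KMO hydroxylates kynurenine, KYNU cleaves the product to 3-hydroxyanthranilate, and HAAO opens that ring. The unstable product stands at a branch point. ACMSD sends it towards complete oxidation, whereas what escapes ACMSD becomes quinolinate, which QPRT turns into a precursor of NAD.

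The liver expressed AFMID, KMO and HAAO strongly, KYNU at an intermediate level and IDO2 weakly. Levels of different genes are set side by side only as CPM per kilobase of locus. On that scale AFMID averaged 74.1 ± 14.1, KMO 55.0 ± 5.95, HAAO 44.7 ± 15.3, KYNU 8.31 ± 1.82 and IDO2 1.68 ± 2.54 CPM per kilobase (SD, n = 9 hens). The locus that joins ACMSD to its neighbour CCNT2 averaged 2.91 ± 1.23 and the second ACMSD locus 0.602 ± 0.186 CPM per kilobase. AFMID, KMO and HAAO thus stood at percentiles 95.7, 94.2 and 93.1 of mean level per kilobase among all tested loci, KYNU at percentile 69.9 and IDO2 at percentile 25.4. The mean of IDO2 is raised by albumen-deprived hens 1 and 2, and its median over the 9 hens was 0.567 CPM per kilobase. Apart from these hens, IDO2 was above 1 CPM only in sham-manipulated hens 2 and 3. Its pass through the filter and its percentile thus depend on the hens by which it was chosen. For scale, the second ACMSD locus, with a mean of 0.602, stood at percentile 6.09. On this scale AFMID was above KMO in 9 of 9 hens, HAAO above KYNU in 9 of 9 and KYNU above the ACMSD/CCNT2 locus in 9 of 9. These orders depend on the division by locus length (AFMID 1442, KMO 2831, KYNU 6127 and the ACMSD/CCNT2 locus 31349 bases), which is that of the merged gene model. In CPM, KMO was above AFMID and the ACMSD/CCNT2 locus above KYNU in every hen. HAAO was above KYNU in CPM in all hens but sham-manipulated hen 2. KMO and HAAO were not separated beyond the spread between hens (KMO higher in 6 of 9). The ACMSD/CCNT2 locus was above IDO2 in 7 of 9 hens, and IDO2 was above the second ACMSD locus in 5 of 9. The 2 hens with IDO2 above the ACMSD/CCNT2 locus were albumen-deprived hens 1 and 2, by which IDO2 was chosen. They are also among the 5, so the place of IDO2 in this order is a description only.

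**Figure D1:**
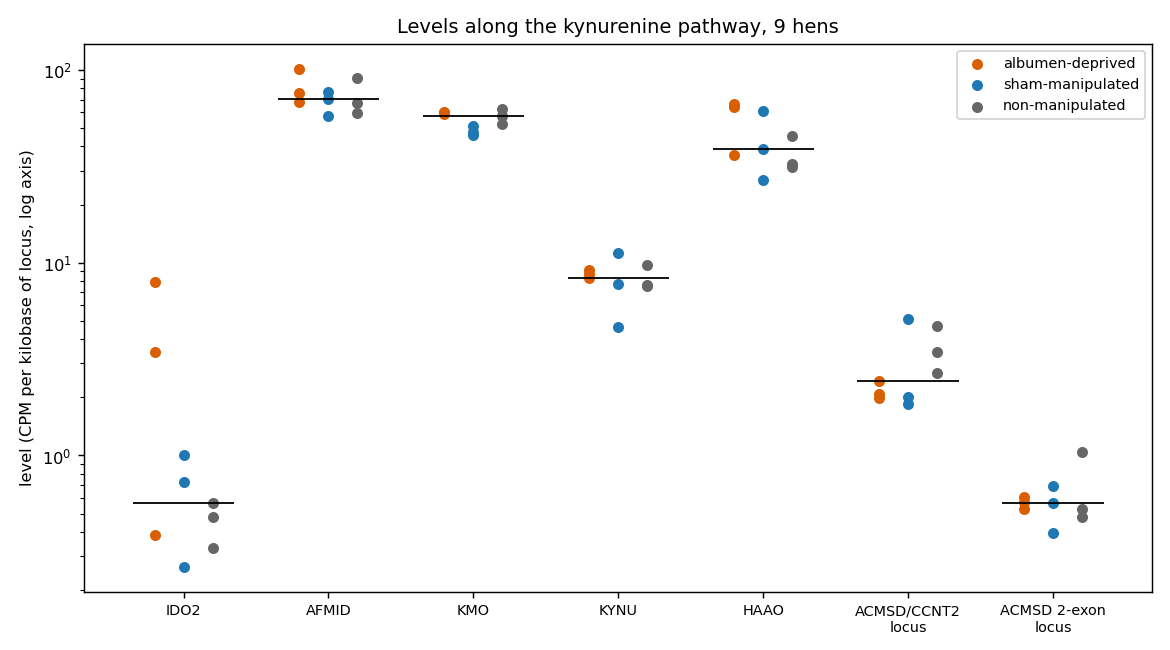
Level of each locus in CPM per kilobase (log axis) in order of the pathway steps, 1 point per hen, coloured by group, with a black line at the median of the 9 hens. AFMID, KMO and HAAO lie above KYNU in every hen, and IDO2 is the only locus whose hens spread over more than 1 power of 10.

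IDO2 (XLOC_009663) lies on chromosome 22 from 2460306 to 2465969 on the plus strand of the Galgal4 build, with 10 exons and a locus length of 1530 bases. Its normalised counts were 5.23, 12.1 and 0.591 CPM in albumen-deprived hens 1, 2 and 3. Sham-manipulated hens had 0.405, 1.54 and 1.12 CPM, and non-manipulated hens 0.737, 0.867 and 0.504 CPM. Only albumen-deprived hens 1 and 2 stood above every hen of the other groups, whereas albumen-deprived hen 3 lay among the non-manipulated hens, so that the groups overlapped. These 2 hens were 3.40 and 7.90 times as high as the highest hen of the other groups. Within the albumen-deprived group hen 2 was 20.5 times as high as hen 3. Albumen-deprived hens 1 and 2 also carry the first 2 of the 9 library codes, whereas albumen-deprived hen 3 carries code 8, and what the order of the codes stands for is not stated in the sources used here. In bulk liver RNA, more cells that express a gene and more RNA per cell cannot be told apart, here or for the other members.

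The IDO2 levels rest on few reads. The libraries of albumen-deprived hens 1 and 2 held 81 and 213 IDO2 counts, against 9 in albumen-deprived hen 3, 7 to 31 in sham-manipulated hens and 9 to 13 in non-manipulated hens. Exact Poisson intervals, which cover counting error only, were 4.15 to 6.50 CPM and 10.6 to 13.9 CPM in the first pair and 0.270 to 1.12 CPM in albumen-deprived hen 3. The interval of albumen-deprived hen 3 overlaps those of all 6 hens of the other groups, and those of hens 1 and 2 overlap none of them.

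The fitted log2-fold change of IDO2 was 3.10 (SE 0.90) in albumen-deprived against non-manipulated hens and 2.54 (SE 0.85) in albumen-deprived against sham-manipulated hens. Group means were 5.99 ± 5.81 CPM in albumen-deprived, 1.02 ± 0.572 CPM in sham-manipulated and 0.703 ± 0.184 CPM in non-manipulated hens (SD, n = 3 each). The SD of the albumen-deprived group is nearly as large as its mean. Without albumen-deprived hen 2 the log2-fold changes were 2.05 and 1.50, and without albumen-deprived hen 3 they were 3.62 and 3.07. With a term for the last 3 library codes, which hold 1 hen of each group, they were 2.80 and 2.17, and the part of code order was not tested further. For sham-manipulated over non-manipulated hens the log2-fold change of IDO2 was 0.56 (SE 0.94). The study listed IDO2 among genes that differed between albumen-deprived hens and both other groups, and marked it not significant between those groups. A small value here may thus be part of the choice of IDO2, and it is also a description without a test.

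**Figure D2:**
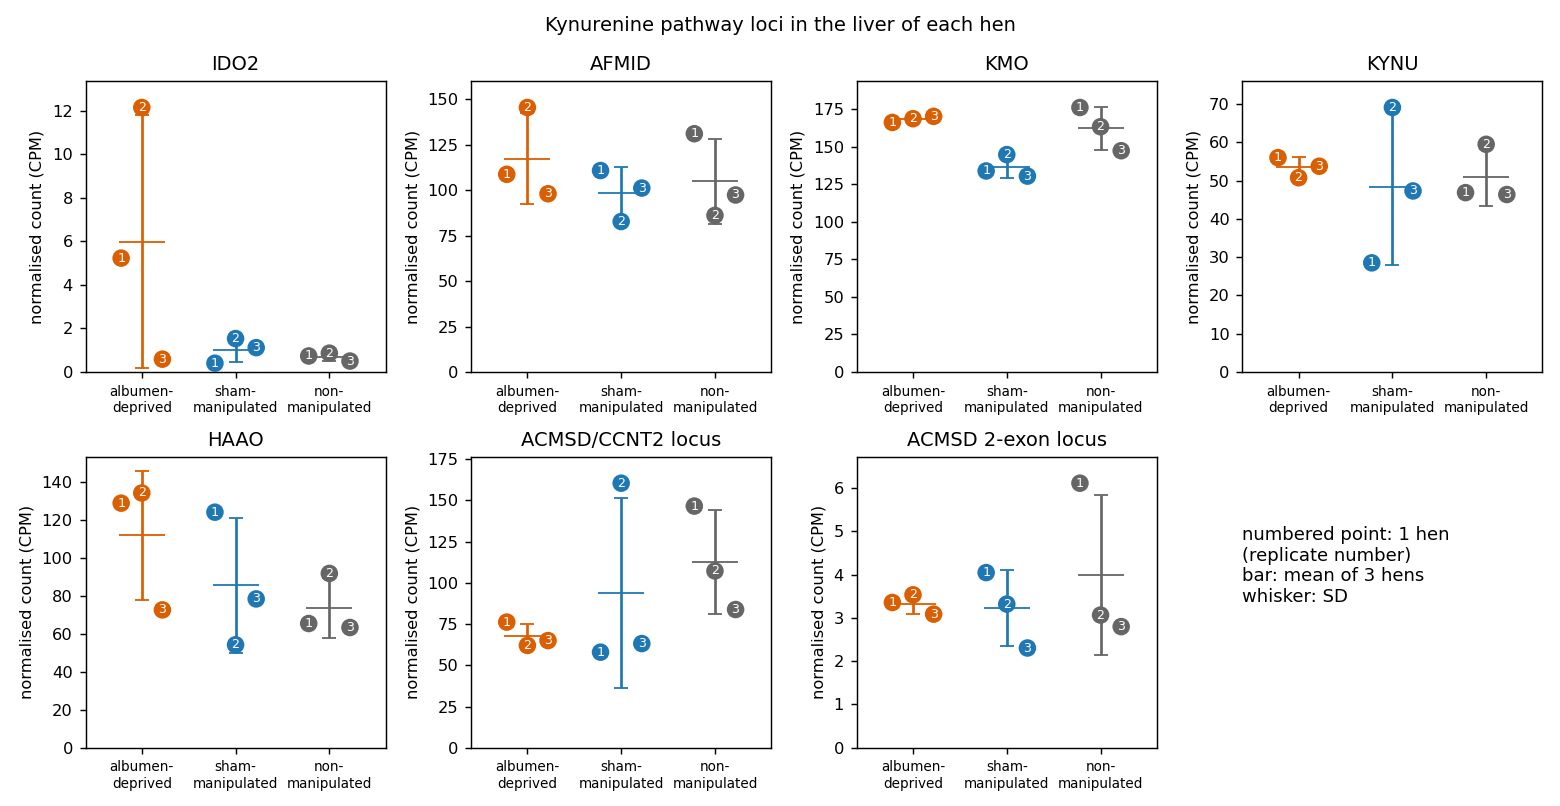
Normalised count (CPM, linear axis from 0) of the 7 loci in each hen, numbered by replicate, with the mean and SD of each group. Albumen-deprived hens 1 and 2 stand apart for IDO2 (5.23 and 12.1 CPM), whereas for KMO the 3 sham-manipulated hens lie below all others.

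TDO2, the dioxygenase that feeds the pathway in liver, could not be measured by name. In RefSeq's gene order for the GRCg7b assembly, TDO2 sits between ASIC5 and CTSO, next to the guanylate cyclase subunit genes GUCY1A3 and GUCY1B3. In the count table the locus named GUCY1B3 (chromosome 4, 20263828 to 20358945, plus strand, Galgal4, 27 exons) runs through this place of the gene order. It covers all 10671 bases of ACCN5, the older symbol of ASIC5, and 2417 of the 7595 bases spanned by CTSO. Its level was 1054, 765 and 754 CPM in albumen-deprived hens, 886, 2002 and 542 CPM in sham-manipulated hens and 704, 1081 and 709 CPM in non-manipulated hens. Sham-manipulated hen 2 was the highest and sham-manipulated hen 3 the lowest, and the groups overlapped in all comparisons. GUCY1B3 itself encodes a subunit of the nitric oxide receptor, and whether reads of TDO2 are counted at this locus cannot be told from a count per locus. The log2-fold changes of this locus were 0.05 (SE 0.42) in albumen-deprived against non-manipulated hens, -0.41 (SE 0.42) in albumen-deprived against sham-manipulated hens and 0.46 (SE 0.42) for sham-manipulated over non-manipulated hens. For this reason no share of IDO2 in the first step was computed.

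**Figure D3:**
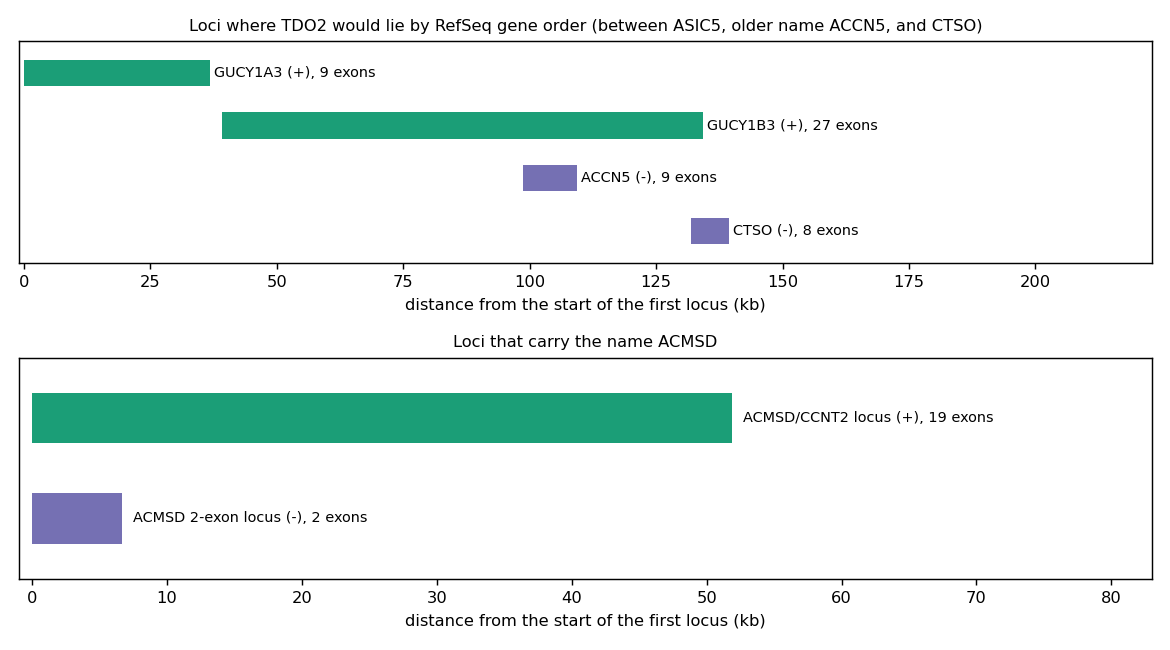
Extent of the loci around the place of TDO2 in the gene order (upper panel) and of the loci named ACMSD (lower panel), as distance in kilobases from the start of the leftmost locus, with plus-strand loci in green and minus-strand loci in purple. The GUCY1B3 locus covers ACCN5 and reaches into CTSO, and the 2-exon ACMSD locus lies inside the ACMSD/CCNT2 locus.

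The 6 loci other than IDO2 were tested in the 3 comparisons. In edgeR's quasi-likelihood test 0 of them passed the cut-off of the study, P under 0.001 with a log2-fold change beyond 1 in either direction, in any comparison. Over all tested loci 0.0487% passed it in albumen-deprived against non-manipulated hens, 0.105% in albumen-deprived against sham-manipulated hens and 0.0649% for sham-manipulated over non-manipulated hens. The study applied this cut-off to another edgeR fit, a negative binomial model of counts corrected for GC content and quantile-normalised. The same cut-off is therefore not equally strict in both. After Benjamini-Hochberg adjustment over the 12324 loci, edgeR left 0 loci of any kind under 0.05 in each comparison, and DESeq2 placed 0 of the pathway loci under an adjusted p of 0.05. At an unadjusted P under 0.05, edgeR called 0 of the 6 in albumen-deprived against non-manipulated hens, where 3.23% of all loci were called. In albumen-deprived against sham-manipulated hens it called 1 of 6 (KMO), where 7.13% of all loci were called. For sham-manipulated over non-manipulated hens it called 0 of 6, where 5.28% of all loci were called. These counts move with single hens. Without sham-manipulated hen 2 they were 1 in albumen-deprived against non-manipulated hens, 2 in albumen-deprived against sham-manipulated hens and 2 for sham-manipulated over non-manipulated hens. In albumen-deprived against sham-manipulated hens the count was 0 without albumen-deprived hen 2, albumen-deprived hen 3 or sham-manipulated hen 3. In albumen-deprived against non-manipulated hens it was 1 without albumen-deprived hen 3, and for sham-manipulated over non-manipulated hens 1 without non-manipulated hen 3.

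The median log2-fold change of these 6 loci was 0.06 in albumen-deprived against non-manipulated hens, 0.20 in albumen-deprived against sham-manipulated hens and -0.17 for sham-manipulated over non-manipulated hens. Over all loci the medians were 0.01, -0.01 and 0.01 in the same order of comparisons. Positive values were found for 4 of 6, 5 of 6 and 1 of 6, beside 51.5%, 47.8% and 52.0% of all loci. Each pair of these comparisons shares 1 group of hens. The smallest adjusted p among the 6 was 1.00 in albumen-deprived against non-manipulated hens, 0.68 in albumen-deprived against sham-manipulated hens and 0.91 for sham-manipulated over non-manipulated hens, from edgeR.

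**Figure D4:**
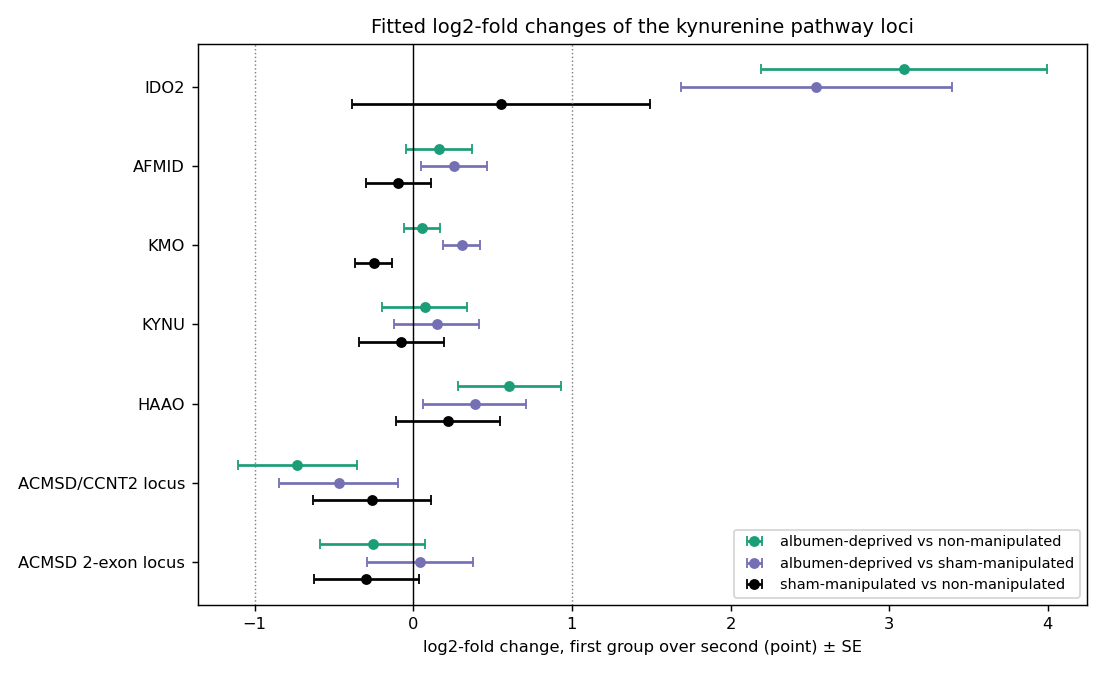
Fitted log2-fold change (point) with its SE (whisker) of the 7 loci in the 3 comparisons, first-named group over second, with dotted lines at -1 and 1. IDO2 has the largest value (3.10) and the widest SE (0.85 to 0.94), and KMO the narrowest (0.11).

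AFMID (XLOC_006398, chromosome 18, 10139265 to 10142673, minus strand, 11 exons), the formamidase that yields kynurenine, did not separate the groups. Albumen-deprived hens had 109, 146 and 98.1 CPM, sham-manipulated hens 111, 82.8 and 101 CPM, and non-manipulated hens 131, 86.2 and 97.4 CPM. Albumen-deprived hen 2, the hen with the highest IDO2, was also the highest for AFMID, but the groups overlapped. The log2-fold changes were 0.16 (SE 0.21) in albumen-deprived against non-manipulated hens, 0.26 (SE 0.21) in albumen-deprived against sham-manipulated hens and -0.09 (SE 0.21) for sham-manipulated over non-manipulated hens. TK1, thymidine kinase, begins 258 bases away on the other strand, and the counting did not use strand.

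KMO (XLOC_016473, chromosome 7, 7162231 to 7173507, plus strand, 14 exons), the hydroxylase of the outer mitochondrial membrane, was the steadiest member. It measured 166, 169 and 170 CPM in albumen-deprived hens, 134, 145 and 130 CPM in sham-manipulated hens and 176, 163 and 147 CPM in non-manipulated hens. Each sham-manipulated hen lay below each hen of both other groups. In albumen-deprived against sham-manipulated hens the log2-fold change was 0.30 (SE 0.11), with an unadjusted P of 0.025 and an adjusted p of 0.68 in edgeR's quasi-likelihood test. For sham-manipulated over non-manipulated hens it was -0.25 (SE 0.11), with an unadjusted P of 0.054. In albumen-deprived against non-manipulated hens it was 0.05 (SE 0.11). The first 2 of these comparisons share the sham-manipulated hens. Leaving out 1 hen at a time kept the first difference between 0.27 and 0.35, with the unadjusted P between 0.025 and 0.082 in edgeR. Over the 9 other alternatives its P ran from 0.0064 (DESeq2 Wald test) to 0.068 (edgeR's likelihood ratio test), under 0.05 in 7 of them. For sham-manipulated over non-manipulated hens P was under 0.05 in 2 of the 9, the DESeq2 Wald test and limma on log2(FPKM + 1).

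Groups without overlap are common in these libraries. They occurred at 8.39% of all loci in albumen-deprived against non-manipulated hens, 12.8% in albumen-deprived against sham-manipulated hens and 9.71% for sham-manipulated over non-manipulated hens. Among the 6 loci other than IDO2, 1 did not overlap in each: the ACMSD/CCNT2 locus in the first and KMO in the others. For a single gene in a comparison of 3 hens with 3, the smallest p an exact permutation test allows (two-sided) is 0.1. A separation of 1 pair of groups thus cannot reach 0.05 on its own. These shares and this limit are for pairs of groups, and loci with 1 group apart from both others were not counted.

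KYNU (XLOC_016667, chromosome 7, 32143918 to 32202554, plus strand, 16 exons), the kynureninase, had 56.0, 50.8 and 53.8 CPM in albumen-deprived hens. Sham-manipulated hens had 28.5, 69.1 and 47.3 CPM, which includes both the lowest and the highest hen of the study, and non-manipulated hens had 46.9, 59.5 and 46.4 CPM. The log2-fold changes were 0.07 (SE 0.27) in albumen-deprived against non-manipulated hens, 0.15 (SE 0.27) in albumen-deprived against sham-manipulated hens and -0.07 (SE 0.27) for sham-manipulated over non-manipulated hens. The sign depended on which sham-manipulated hen was left out. Albumen-deprived against sham-manipulated hens gave -0.12 without sham-manipulated hen 1 and 0.50 without sham-manipulated hen 2.

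HAAO (XLOC_012321, chromosome 3, 23462000 to 23494020, minus strand, 10 exons), the ring-opening dioxygenase, had 129, 134 and 72.6 CPM in albumen-deprived hens. Sham-manipulated hens had 124, 54.2 and 78.4 CPM, and non-manipulated hens 65.4, 91.8 and 63.3 CPM. Albumen-deprived hens 1 and 2 were the highest of the 9, as they were for IDO2, and sham-manipulated hen 1 came close to them. The log2-fold change was 0.61 (SE 0.33, with an unadjusted P of 0.095 in edgeR) in albumen-deprived against non-manipulated hens, 0.39 (SE 0.33) in albumen-deprived against sham-manipulated hens and 0.22 (SE 0.33) for sham-manipulated over non-manipulated hens. The first value was 0.83 without albumen-deprived hen 3 and 0.45 without albumen-deprived hen 2. The second was 0.75 without sham-manipulated hen 1 and 0.14 without sham-manipulated hen 2. For the first value, the unadjusted P in edgeR was 0.031 without albumen-deprived hen 3. For the second it was 0.036 without sham-manipulated hen 1, where KMO was not called. Leaving out any other hen gave no P under 0.05 for HAAO in these comparisons, with highest values of 0.25 and 0.66.

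ACMSD, the decarboxylase at the branch point, gave the only locus of the 7 whose mean was lowest in the albumen-deprived group (the ACMSD/CCNT2 locus), and its measurement is uncertain. This larger locus (XLOC_016657, chromosome 7, 29936747 to 29988653, plus strand, 19 exons) merges ACMSD with CCNT2, a cyclin of transcription elongation, in 1 model of 31349 bases. A locus with the name ACMSD alone (XLOC_016934, 29936747 to 29943428, minus strand, 2 exons) lies wholly inside it on the opposite strand. Without strand, reads on the bases they share cannot be given to one of them and were left out of both counts.

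The ACMSD/CCNT2 locus had 76.2, 62.0 and 65.0 CPM in albumen-deprived hens, 58.0, 160 and 63.2 CPM in sham-manipulated hens and 147, 107 and 83.8 CPM in non-manipulated hens. All 3 albumen-deprived hens lay below all 3 non-manipulated hens. Sham-manipulated hens 1 and 3 lay with or below the albumen-deprived hens, and sham-manipulated hen 2 was the highest of the study. The log2-fold change was -0.73 (SE 0.37, with an unadjusted P of 0.081 in edgeR) in albumen-deprived against non-manipulated hens, -0.47 (SE 0.37) in albumen-deprived against sham-manipulated hens and -0.26 (SE 0.37) for sham-manipulated over non-manipulated hens. In albumen-deprived against non-manipulated hens the value was -0.50 without non-manipulated hen 1 and -0.91 without non-manipulated hen 3. There the unadjusted P in edgeR was 0.0056 without sham-manipulated hen 2 and 0.0089 with only these 2 groups in the fit. Without sham-manipulated hen 2 the comparison of albumen-deprived with sham-manipulated hens turned to 0.16, and that of sham-manipulated with non-manipulated hens moved to -0.90 with an unadjusted P of 0.0039 in edgeR. The 2-exon locus had 3.36, 3.54 and 3.09 CPM in albumen-deprived hens, 4.05, 3.32 and 2.31 CPM in sham-manipulated hens and 6.12, 3.07 and 2.80 CPM in non-manipulated hens. Non-manipulated hen 1 stood highest, and the groups overlapped in every comparison.

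The members differed widely in how far hens of 1 group lay apart. The spread within groups, as an SD of log2 CPM, was 1.33 for IDO2, 0.53 for the ACMSD/CCNT2 locus, 0.48 for HAAO, 0.42 for the 2-exon ACMSD locus, 0.39 for KYNU, 0.28 for AFMID and 0.09 for KMO, where the median of all tested loci was 0.26. IDO2 thus lay at percentile 98.7 and KMO at percentile 2.85 of spread. The spread of IDO2 includes albumen-deprived hens 1 and 2, by which it was chosen, so that its percentile is a description only. Sham-manipulated hens 1 and 2 stood at opposite ends for several members. Hen 2 of this group was the highest of the 9 for KYNU and the ACMSD/CCNT2 locus and the lowest for AFMID and HAAO, whereas hen 1 was the lowest for KYNU, the ACMSD/CCNT2 locus and IDO2. PCK1, the gluconeogenic enzyme that follows feeding state, is a gene named after its values were seen. It measured 0.752, 170 and 50.5 CPM in sham-manipulated, 148, 115 and 77.5 CPM in albumen-deprived and 269, 103 and 30.1 CPM in non-manipulated hens. Non-manipulated hen 1, the highest for PCK1, had 131 CPM of AFMID and 46.9 CPM of KYNU, against 82.8 and 69.1 CPM in sham-manipulated hen 2. The part of feeding state in these profiles was not tested.

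**Figure D5:**
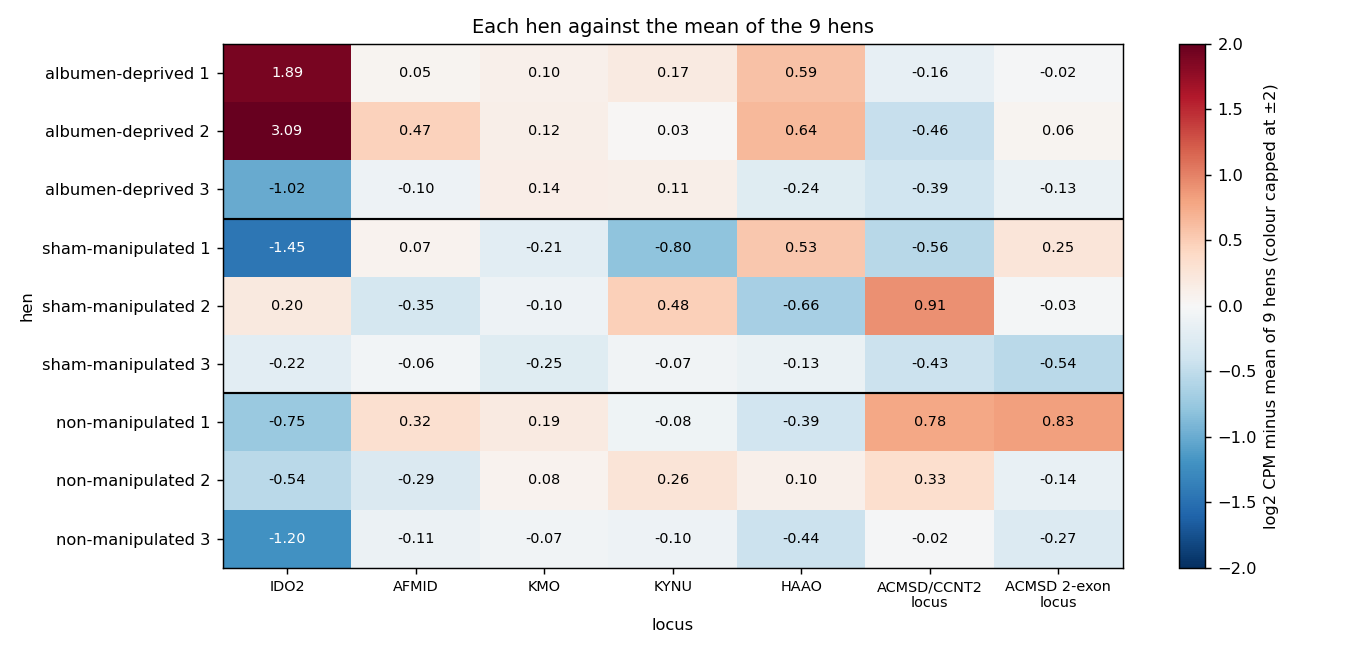
Log2 CPM of each locus in each hen minus the mean of the 9 hens, in colour (capped at 2 in either direction) and as printed values. The column of IDO2 spans from -1.45 in sham-manipulated hen 1 to 3.09 in albumen-deprived hen 2, whereas no hen departs by more than 0.25 for KMO.

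The genes whose pattern over the 9 hens was most like that of IDO2 were sought among 10340 named loci by Pearson's r of log2 CPM, as a description over hens that include the 2 by which IDO2 was chosen. They were CD36 (r = 0.96), a fatty acid transporter, the locus named IBR/F and described as nuclear respiratory factor 1 (0.95), and PDHX (0.95), a component of the pyruvate dehydrogenase complex. Then came the sulfotransferase SULT1C (0.93), the manganese exporter SLC30A10 (0.93), an unnamed gene with the Ensembl identifier ENSGALG00000028371 (0.92), SUCLG2 (0.90), a subunit of succinyl-CoA ligase, and SLC22A23 (0.89). Their own differences were smaller in fold. CD36 measured 379, 420 and 284 CPM in albumen-deprived hens, 281, 295 and 276 CPM in sham-manipulated hens and 268, 288 and 265 CPM in non-manipulated hens. For CD36 as well, only albumen-deprived hens 1 and 2 lay above all hens of the other groups. No other pathway enzyme was among the 8, the nearest being HAAO (r = 0.54 with IDO2).

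For the other enzymes the loci most like them were FBXO5/MTRF1L and MPHOSPH8 for AFMID (r = 0.95 and 0.93), DENND4A and ENSGALG00000006556 for KMO (0.93 and 0.93), SCYL2 and GFRA3 for KYNU (0.97 and 0.96), and SLC2A5, a fructose transporter, and PLXDC1 for HAAO (0.95 and 0.94). The ACMSD/CCNT2 locus was most like IPO11 and FBXW11 (0.95 and 0.94), and the 2-exon locus most like MAP4K5 and STK11IP (0.92 and 0.91). Among the pathway members themselves the highest correlation over the 9 hens was 0.54 and the lowest -0.65, which was that of HAAO with the ACMSD/CCNT2 locus.

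Beyond the main chain, other uses of tryptophan and its products showed no called change at the cut-off. Of the aminotransferases that turn kynurenine into kynurenic acid, GOT2, CCBL2 and AADAT were tested, with 0 past the cut-off and 0 under an unadjusted P of 0.05 in edgeR in all 3 comparisons. Over all loci 3.23% were under that P in albumen-deprived against non-manipulated hens. The share was 7.13% in albumen-deprived against sham-manipulated hens and 5.28% for sham-manipulated over non-manipulated hens. At such shares 0 is a usual count for lists as short as this one and those below. GOT2, also the mitochondrial aspartate aminotransferase, had 369, 306 and 304 CPM in albumen-deprived hens, 230, 314 and 224 CPM in sham-manipulated hens and 255, 290 and 300.5 CPM in non-manipulated hens. Its log2-fold change was 0.21 (SE 0.16) in albumen-deprived against non-manipulated hens and 0.35 (SE 0.16) in albumen-deprived against sham-manipulated hens. CCBL1 held at most 0.133 CPM. Of the enzymes that carry the ACMSD product towards acetyl-CoA, 7 were tested, with median log2-fold changes of 0.18 in albumen-deprived against non-manipulated hens, 0.08 in albumen-deprived against sham-manipulated hens and 0.09 for sham-manipulated over non-manipulated hens, and 0 under an unadjusted P of 0.05 in edgeR. Of the NAD synthesis genes, 6 loci were tested, again with 0. NAPRT1, which makes NAD from nicotinic acid and so bypasses the tryptophan route, had 115, 124 and 95.9 CPM in albumen-deprived hens, 71.4, 104 and 89.0 CPM in sham-manipulated hens and 95.3, 104 and 95.8 CPM in non-manipulated hens, and its groups overlapped. NADK, the kinase that makes NADP from NAD, had 286, 283 and 263 CPM in albumen-deprived hens, 236, 256 and 262 CPM in sham-manipulated hens and 295, 298 and 289 CPM in non-manipulated hens. Its groups did not overlap in any comparison, with log2-fold changes of -0.08 (SE 0.11) in albumen-deprived against non-manipulated hens, 0.14 (SE 0.11) in albumen-deprived against sham-manipulated hens and -0.23 (SE 0.11) for sham-manipulated over non-manipulated hens. Over all loci, groups did not overlap at 8.39%, 12.8% and 9.71% in the same order of comparisons.

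The branch from tryptophan to serotonin and melatonin was near 0 at its first step. TPH1, tryptophan hydroxylase, held at most 0.368 CPM, and TPH2, AANAT and ASMT at most 0.0667 CPM. The amine-handling enzymes DDC, MAOA and MAOB were expressed, and MAOB was the only gene in the lists of tryptophan use and its control with an unadjusted P under 0.05. It made 1 of 44 list loci tested (2.27%) in albumen-deprived against non-manipulated hens, where 3.23% of all loci were called, and 1 of 44 for sham-manipulated over non-manipulated hens, where 5.28% were called. In albumen-deprived against sham-manipulated hens 0 of 44 list loci were called, where 7.13% of all loci were. None of these shares is above that of all loci. MAOB had 25.2, 37.4 and 26.6 CPM in albumen-deprived hens, 36.4, 42.8 and 24.5 CPM in sham-manipulated hens and 16.1, 16.3 and 23.0 CPM in non-manipulated hens. Every hen from a manipulated egg was above every non-manipulated hen, but sham-manipulated hen 3 only just above non-manipulated hen 3. Groups did not overlap at 8.39% of all loci in albumen-deprived against non-manipulated hens and at 9.71% for sham-manipulated over non-manipulated hens. The log2-fold change was 0.68 (SE 0.24, unadjusted P of 0.019) in albumen-deprived against non-manipulated hens and 0.90 (SE 0.24, unadjusted P of 0.0045) for sham-manipulated over non-manipulated hens, both from edgeR, with adjusted p of 1.00 and 0.91. These comparisons share the non-manipulated hens, and in albumen-deprived against sham-manipulated hens the value was -0.22 (SE 0.24).

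Genes that are known in mammals to control the first step were also read. Interferon gamma induces IDO enzymes, and 8 of its receptor, kinase and response genes were tested, with 0 under an unadjusted P of 0.05 in edgeR. With 3.23% to 7.13% of all loci called in the 3 comparisons, 0 is a usual count for this list and the short lists below. IRF1, a transcription factor of that response, had 27.3, 25.2 and 39.1 CPM in albumen-deprived hens, 44.7, 18.6 and 33.1 CPM in sham-manipulated hens and 17.3, 29.8 and 37.2 CPM in non-manipulated hens. IFNGR1, a chain of the interferon gamma receptor, had 95.4, 124 and 74.7 CPM in albumen-deprived hens, 71.1, 84.1 and 82.4 CPM in sham-manipulated hens and 78.3, 110 and 69.1 CPM in non-manipulated hens. In albumen-deprived hens 1 and 2, which had the high IDO2, IRF1 was lower and IFNGR1 higher than in albumen-deprived hen 3, and the part of either in the IDO2 level was not tested. IFNG itself held at most 0.856 CPM. Of the aryl hydrocarbon receptor, which binds kynurenine, and its partners and targets, 7 loci were tested, with 0. AHR had 101, 101 and 101 CPM in albumen-deprived hens, 87.9, 100.1 and 85.2 CPM in sham-manipulated hens and 90.6, 82.4 and 84.9 CPM in non-manipulated hens. Each albumen-deprived hen was above each of the others, but hen 3 (100.9 CPM) only just above sham-manipulated hen 2. Groups did not overlap at 8.39% of all loci against non-manipulated and 12.8% against sham-manipulated hens. The log2-fold change was 0.24 (SE 0.11, with an unadjusted P of 0.059 in edgeR) against non-manipulated hens. Over the 7 loci the values in that comparison ran from -0.35 (CYP1B1) to 0.62 (CYP1A1). Their median was 0.17, with 4 above 0. Of the glucocorticoid axis, which induces TDO2 in mammals, 5 loci were tested, with 0, and of the transporters and tRNA synthetases that bring tryptophan into the cell and charge it, 5 loci, also with 0.

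Markers of liver and other cells were set beside these levels. Hepatocyte markers (6 of 6 measured) summed to 159101 to 179518 CPM in albumen-deprived, 124951 to 183132 CPM in sham-manipulated and 163485 to 175747 CPM in non-manipulated hens. Dendritic cell markers (3 of 4 names measured), of a cell type known for IDO in mammals, summed to 19.0 to 19.1 CPM in albumen-deprived, 19.7 to 23.1 CPM in sham-manipulated and 16.4 to 18.2 CPM in non-manipulated hens. Most of this sum is ZBTB46. BATF3 had 1.87, 3.76 and 2.17 CPM in albumen-deprived hens and 2.49, 1.88 and 2.90 CPM in sham-manipulated hens. Non-manipulated hens had 1.47, 3.40 and 2.02 CPM of BATF3, and its highest value was in albumen-deprived hen 2. In that hen FLT3 (2.05 CPM) and ZBTB46 (13.2 CPM) were below their means over all hens (2.46 and 14.4 CPM). In albumen-deprived hen 1, FLT3 (1.42 CPM) was also below its mean, whereas ZBTB46 (15.8 CPM) was above its mean. The part of these dendritic cell markers in the IDO2 level was not tested. Macrophage markers (7 of 8 measured) summed to 1168 to 1229 CPM in albumen-deprived, 1247 to 1539 CPM in sham-manipulated and 548 to 1389 CPM in non-manipulated hens. T and NK cell markers summed to 38.4 to 59.8 CPM in albumen-deprived, 37.1 to 61.4 CPM in sham-manipulated and 35.3 to 68.9 CPM in non-manipulated hens.

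Heterophil markers (6 of 7 measured) summed to 6.57 to 10.9 CPM in albumen-deprived, 11.8 to 45.4 CPM in sham-manipulated and 9.07 to 32.4 CPM in non-manipulated hens. The sum was lower in each albumen-deprived hen than in each sham-manipulated hen, whereas KMO was higher. The same held for the sums of macrophage markers (1168 to 1229 against 1247 to 1539 CPM) and dendritic cell markers (19.0 to 19.1 against 19.7 to 23.1 CPM). Hen by hen, non-manipulated hen 1 had 32.4 CPM of heterophil markers and the highest KMO (176 CPM), and sham-manipulated hen 3 had 11.8 CPM and the lowest KMO (130 CPM). Sham-manipulated hens 1 and 2 had 38.3 and 45.4 CPM of the markers, with KMO at 134 and 145 CPM. Albumen-deprived hens 1, 2 and 3 had 10.9, 9.52 and 6.57 CPM, with KMO at 166, 169 and 170 CPM. Non-manipulated hens 2 and 3 had 9.14 and 9.07 CPM, with KMO at 163 and 147 CPM. The part of any of these marker lists in the KMO difference between albumen-deprived and sham-manipulated hens was not tested. In that comparison the log2-fold changes of the heterophil genes GAL1, GAL2, LECT2 and CATHL2 were -1.77, -2.55, -2.11 and -2.02. That of the dendritic cell receptor FLT3 was -0.93. Each had an unadjusted P under 0.05 in edgeR, as did 7.13% of all loci, and none an adjusted p below 0.56. The heterophil gene LYZ (-0.58) and the dendritic cell markers ZBTB46 (-0.07) and BATF3 (0.11) were not called. B and plasma cell markers summed to at most 3.16 CPM, bile duct markers to at most 5.04 CPM and red cell markers to at most 2.13 CPM. The 3 kidney tubule markers were at 0 in every library. Intestinal and pancreatic markers, of which CDX2, FABP2, CPA1, PRSS2 and CTRC were at or near 0, summed to 2.26, 4.90 and 1.31 CPM in albumen-deprived hens, 1.21 to 2.70 CPM in sham-manipulated hens and 0.600 to 2.30 CPM in non-manipulated hens. The highest sum fell in albumen-deprived hen 2, the hen with the highest IDO2, and was mostly 1 gene, VIL1 (4.45 CPM). AMY2A had 0.456 CPM in that hen and its highest value, 1.19 CPM, in sham-manipulated hen 3. The part of these markers in the IDO2 level was not tested.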

How the data were processed

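Liver RNA of 9 hens, 3 per group, was sequenced as single-end unstranded libraries in 1 lane. The authors mapped reads to Galgal4 with TopHat2 2.0.8b, merged Cufflinks 2.1.1 gene models of all samples with the reference annotation and deposited raw counts per locus made with HTSeq 0.5.4p3 without strand, with reads shared by more than 1 locus discarded. Merged or overlapping gene models therefore lose or share reads. The deposited FPKM values, quantile-normalised by the authors over the 13599 loci they kept, were used only in alternatives. A table of the authors' own fold changes and p-values was not used.

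Counts were tested with edgeR 4.0.16 in R 4.3.3 (TMM scaling with factors of 0.914 to 1.12, 1 quasi-likelihood fit over the 9 libraries, two-sided), and the fit was tested on simulated data. Loci needed more than 1 CPM in at least 3 libraries. P is unadjusted unless named as adjusted (Benjamini-Hochberg over all tested loci). The SE of a fitted log2-fold change was derived from the test. It is the size of the change divided by the square root of its quasi-likelihood F statistic. CPM uses TMM-scaled library totals, and log2 CPM a prior count of 2. DESeq2 1.42.0, limma 3.58.1, other scalings and filters, and leaving out each hen were alternatives. Named were all members, genes of the other lists with P under 0.05 in a comparison (at most 4 per list and comparison) and the 8 loci most like IDO2 and 2 for each other locus. Other genes stand as examples of their list, picked with their values in view. The members and lists were chosen with earlier results of these data known. Sequences of the genes were not used here.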

Additional observations from a re-analysis of the deposited data

How the results depend on the processing

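Of the 21 log2-fold changes (7 loci in 3 comparisons), 11 kept their direction under all 18 alternatives. The count of members past the cut-off was 0 in each comparison, and 1 in albumen-deprived against non-manipulated hens with edgeR's likelihood ratio test and with the DESeq2 Wald test. Leaving out 1 hen at a time it lay between 0 and 1 in albumen-deprived against non-manipulated and against sham-manipulated hens. The counts of 1 in these fits arose without albumen-deprived hen 3. Each count of 1 is IDO2, which was chosen by this difference, so that it is a description and no test.

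Directions turned for 10 of the values. Over the fits that leave out 1 hen, AFMID spanned -0.020 to 0.36 in albumen-deprived against non-manipulated and -0.22 to 0.10 in sham-manipulated against non-manipulated hens, KMO -0.012 to 0.12 in albumen-deprived against non-manipulated hens, and HAAO -0.16 to 0.46 in sham-manipulated against non-manipulated hens. KYNU spanned -0.12 to 0.50 in albumen-deprived against sham-manipulated and -0.43 to 0.19 in sham-manipulated against non-manipulated hens. The ACMSD/CCNT2 locus spanned -0.72 to 0.16 in albumen-deprived against sham-manipulated hens. The 2-exon ACMSD locus spanned -0.46 to 0.18 in albumen-deprived against non-manipulated, -0.15 to 0.24 in albumen-deprived against sham-manipulated and -0.50 to 0.14 in sham-manipulated against non-manipulated hens. With limma on log2(FPKM + 0.1) and log2(FPKM + 1) it was -0.036 and -0.014 in albumen-deprived against sham-manipulated hens. The causes were not tested.

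Replicate numbers did not pair the hens (correlations of same-numbered hens -0.16 to 0.24), and with a replicate block the members past the cut-off stayed at 0, 0 and 0. The alternatives for a share of IDO2 in the first step were not run, because TDO2 has no locus of its own name. Depth limits IDO2, with 7 to 31 counts in 7 of 9 libraries, more than any other member.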

Other observations

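The locus next to IDO2 on its 5' side, ENSGALG00000026763, 1047 bases away on the same strand, held 2, 6 and 1 counts in albumen-deprived hens, 1, 4 and 2 in sham-manipulated hens and 1, 1 and 0 in non-manipulated hens. The next one out, ENSGALG00000003444, held 7, 5 and 0 counts in albumen-deprived hens, 0, 1 and 0 in sham-manipulated hens and 1, 2 and 0 in non-manipulated hens. Both were below the filter and were not tested. C8ORF4, 13000 bases beyond IDO2 on its 3' side, held 1553, 1127 and 1081 counts in albumen-deprived hens, 1368, 2163 and 1070 in sham-manipulated hens and 1163, 1197 and 1391 in non-manipulated hens, with no hen apart in the manner of IDO2.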
